A study of Mus musculus with 4 samples.

Results

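Ependymal cells, the ciliated epithelium of the brain ventricles, were picked out of droplet single-cell RNA libraries from hippocampus and sensory cortex of wild-type mice. Members were chosen by their UMI counts of marker genes, which are therefore a description and not a finding. A barcode counted as ependymal when at least 4 of 7 motile cilium genes (Foxj1, Tmem212, Ccdc153, Dynlrb2, Pifo, Tekt1, Rsph1) had a unique molecular identifier (UMI) and at most 1 of 5 choroid plexus genes (Kl, Folr1, Clic6, Kcne2, Otx2) had one. Before that, barcodes with under 300 genes or over 20% mitochondrial UMIs were left out. The rule found 118 ependymal cells among 44912 kept barcodes.

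The mice had received DOCA-salt, a model of hypertension made with a mineralocorticoid hormone and a salt load, or a sham treatment. The study held 1 library for each of 4 groups: DOCA-salt and sham hippocampus, and DOCA-salt and sham sensory cortex, all from WT mice. Labels state 3 mice per group. Pooling of their cells, age, sex, dose and length of treatment are not given in the sources used here. Groups follow the library titles. For 2 libraries, cortex DOCA-salt and hippocampus sham, the treatment field of the labels contradicts the title, so every DOCA-salt and sham direction below rests on the titles. With 1 library per group there was no test, and intervals (95%) cover counting error of UMIs or barcodes only, not the spread between mice. Intervals of UMI ratios also leave out the spread between cells, so a few cells can carry a ratio.

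Motile cilia of ependymal cells beat together and move cerebrospinal fluid over the ventricle wall. Each cilium is built from an axoneme of microtubules with dynein motors, radial spokes and a central pair, is assembled by intraflagellar transport and is anchored by a basal body. Foxj1 and RFX transcription factors switch this programme on. Ependymal cells also carry water channels, ion pumps and secreted proteins that face the cerebrospinal fluid.

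Promoter sequences are shown for genes that carry a binding motif of regulatory factor X (RFX) proteins, because RFX factors and Foxj1 are the known regulators of the motile cilium genes that mark ependymal cells. Each window runs from 250 bases before to 50 bases after a RefSeq gene start on GRCm38.p6, 5′ to 3′ on the gene's strand, with the match in capitals.
Pifo (chr3:106001448-106001747, minus strand): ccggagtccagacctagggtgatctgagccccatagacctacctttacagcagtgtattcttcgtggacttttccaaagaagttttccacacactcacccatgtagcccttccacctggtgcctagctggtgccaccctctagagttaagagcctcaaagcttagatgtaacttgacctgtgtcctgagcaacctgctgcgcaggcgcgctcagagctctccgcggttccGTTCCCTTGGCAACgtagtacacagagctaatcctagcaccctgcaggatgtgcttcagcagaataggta
Iqca (chr1:90153387-90153686, minus strand): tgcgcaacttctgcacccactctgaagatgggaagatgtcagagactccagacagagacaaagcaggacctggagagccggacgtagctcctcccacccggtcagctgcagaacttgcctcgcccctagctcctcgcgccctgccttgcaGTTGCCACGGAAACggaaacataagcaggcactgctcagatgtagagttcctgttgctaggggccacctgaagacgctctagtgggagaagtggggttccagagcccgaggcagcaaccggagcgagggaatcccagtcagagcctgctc
Ccdc151 (chr9:22002585-22002884, minus strand): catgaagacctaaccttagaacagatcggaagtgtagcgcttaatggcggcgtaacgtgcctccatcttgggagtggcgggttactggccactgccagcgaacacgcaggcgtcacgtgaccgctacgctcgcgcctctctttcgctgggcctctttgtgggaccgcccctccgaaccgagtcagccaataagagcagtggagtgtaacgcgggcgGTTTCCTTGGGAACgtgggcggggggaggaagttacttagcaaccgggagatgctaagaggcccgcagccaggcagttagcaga
Ccdc153 (chr9:44240427-44240726, plus strand): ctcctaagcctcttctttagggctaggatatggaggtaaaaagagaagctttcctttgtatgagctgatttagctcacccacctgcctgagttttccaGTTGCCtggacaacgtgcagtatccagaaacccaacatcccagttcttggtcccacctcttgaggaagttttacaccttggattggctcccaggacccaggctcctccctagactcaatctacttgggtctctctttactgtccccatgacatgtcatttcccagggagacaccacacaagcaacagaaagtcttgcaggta
The first 3 windows hold the full X-box, searched on both strands as GTTNCCNNGGNAAC, and the fourth holds only the shorter site GTTGCC, which can overlap a full match. Pifo and Ccdc153 belong to the membership rule, Iqca encodes a part of the nexin link between microtubule doublets, and Ccdc151 is needed to dock outer dynein arms. The full X-box lay in 143 of 27025 genes with a window (0.529%), in 2 of 72 genes of the axoneme and motor lists (2.78%) and in 1 of 30 genes for intraflagellar transport and the BBSome (3.33%). The shorter site lay in 3821 of all genes (14.1%), in 30 of the 72 (41.7%), in 13 of the 30 (43.3%) and in 2 of 19 immediate early genes (10.5%). The forkhead motif GTAAACA lay in 1095 of all genes (4.05%) and in 5 of the 72 (6.94%). A match describes these letters in these windows and is not a measured binding site.

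Ependymal cells made up 50 of 11241 kept barcodes in the hippocampus DOCA-salt library, or 0.445% (exact binomial interval 0.330 to 0.586), against 53 of 11231 in the hippocampus sham library, or 0.472% (0.354 to 0.617). The ratio of the shares was 0.943 (0.627 to 1.41), so no difference was detectable at these cell numbers. In cortex the rule found 8 of 11354 barcodes with DOCA-salt (0.0705%, 0.0304 to 0.139) and 7 of 11086 with sham (0.0631%, 0.0254 to 0.130). The hippocampal share was 6.31 times the cortical one in the DOCA-salt libraries (2.97 to 15.4) and 7.47 times in the sham libraries (3.39 to 19.5). How much ventricle wall each dissection held was not measured.

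Depth differed between the groups. Ependymal cells held a median of 2685.5 UMIs in hippocampus DOCA-salt (679 to 19568), 3859 in hippocampus sham (587 to 25567), 8008.5 in cortex DOCA-salt and 7460 in cortex sham. Under 2000 UMIs lay 23 of the 50 DOCA-salt cells and 11 of the 53 sham cells of hippocampus, and no cortical cell. The rule asks for 4 genes with a UMI, so cells with 4 of the 7 were shallow, with medians of 948.5 UMIs over 14 DOCA-salt cells and 1437 over 7 sham cells. Cells with all 7 genes had medians of 9508 UMIs over 13 DOCA-salt cells and 6449 over 19 sham cells. Just outside the rule, with 3 of the genes, lay 22 DOCA-salt and 15 sham barcodes of hippocampus, and 1 DOCA-salt and 0 sham barcodes of cortex. No member barcode was a member in another library. Scrublet called 1 DOCA-salt and 1 sham member of hippocampus a doublet, and these were kept.

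**Figure D1:**
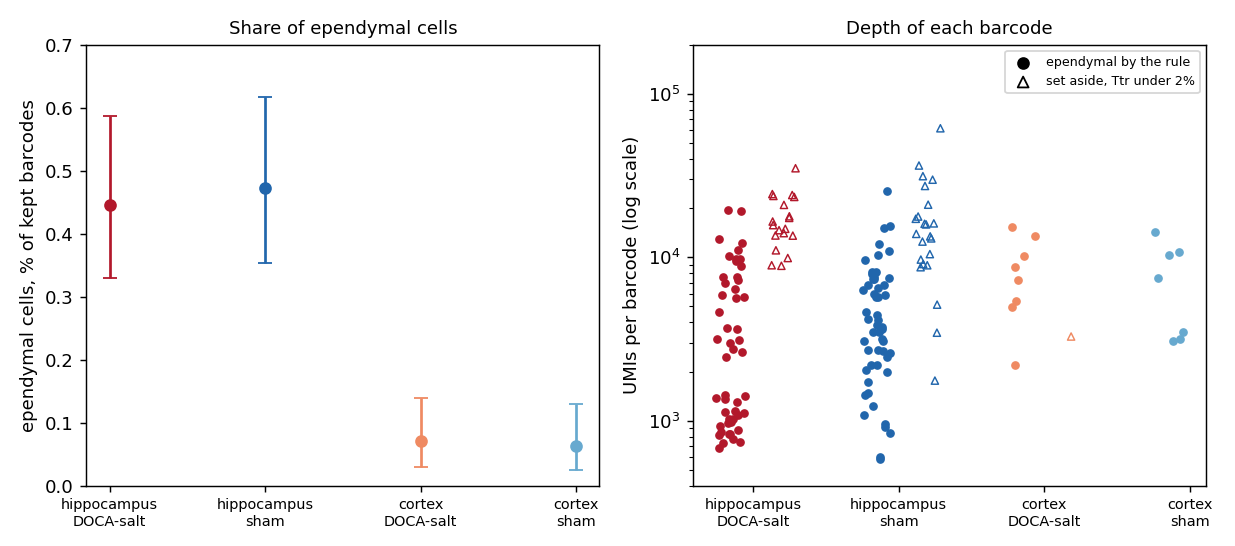
Left, ependymal cells as a percentage of kept barcodes in each library, with exact 95% binomial intervals; right, UMIs of each barcode on a log axis, filled circles for ependymal cells by the rule and open triangles for barcodes set aside by the choroid plexus ceiling with Ttr under 2% of UMIs. The hippocampal shares, 0.445% and 0.472%, lie within each other's intervals, and the triangles sit mostly above the circles.

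The choroid plexus ceiling removed mostly deep barcodes that met the cilium gene part of the rule. It set aside 19 hippocampus DOCA-salt and 147 hippocampus sham barcodes with 4 or more of the cilium genes, and 2 in each cortical library. Ttr, which encodes transthyretin and dominates choroid plexus RNA, stayed under 2% of UMIs in all 19 of the DOCA-salt barcodes and in 23 of the sham ones. In these low-Ttr barcodes Tmem212 had a UMI in 19 of 19 with DOCA-salt and 22 of 23 with sham, and median depth was 15729 UMIs with DOCA-salt and 13901 with sham. Kl, the klotho gene of choroid plexus epithelium, had no UMI in any of them, while Folr1 had one in 18 of 19 DOCA-salt and 23 of 23 sham barcodes. Otx2 had a UMI in 17 DOCA-salt and 22 sham barcodes, Clic6 in 12 and 6, and Kcne2 in 0 and 2.

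Folr1, a folate receptor gene, was also present in the ependymal cells themselves, at 179 counts per 1000000 UMIs (CPM) with DOCA-salt and 182 CPM with sham in hippocampus. Other barcodes of those libraries held 1.51 CPM with DOCA-salt and 50.9 CPM with sham. In the DOCA-salt library, where choroid plexus RNA was scarce, the Folr1 level in ependymal cells was thus 118 times that in other barcodes. The remaining 124 sham barcodes set aside had Ttr at 261947 CPM, Kl in 121 and Tmem212 in 7. The low-Ttr barcodes were picked by cilium genes and by Ttr, so their Tmem212 and Ttr values follow in part from that choice. Folr1 is itself a gene of the ceiling. The identity of these barcodes was not tested. Hippocampal values below are therefore given for the rule's cells and, where they differ, for a wider set. The wider set adds the low-Ttr barcodes and leaves out a sham member with high Ttr, 1 endothelial barcode and barcodes with 2% or more of UMIs in oligodendrocyte genes. It was drawn up after the values were seen and holds 64 DOCA-salt barcodes (545328 UMIs, median 6666.5) and 61 sham barcodes (539695 UMIs, median 5987).

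The 7 rule genes were high by choice, and their levels are a description. Tmem212 stood at 2394 CPM in hippocampus DOCA-salt, 2068 in hippocampus sham, 2314 in cortex DOCA-salt and 1878 in cortex sham. Foxj1, the master regulator of motile cilia, stood at 769, 700, 648 and 759 CPM in the same order of libraries. Stray Tmem212 UMIs occurred in 1.87% of 3262 hippocampal microglia barcodes with DOCA-salt (median 6562.5 UMIs) and 2.27% of 2913 with sham (5773). Among ependymal cells the gene was found in 46 of 50 with DOCA-salt and 51 of 53 with sham, which the rule in part fixes. Of 26 other genes known from ependymal cells, 24 exceeded 2 times their level in other barcodes in each hippocampal library. The counts were 23 in cortex DOCA-salt and 25 in cortex sham. The share of all genes above that mark is not given here, so these counts are a description. Kl had a UMI in 0 DOCA-salt and 2 sham cells of hippocampus. Neuronal genes, of which 6 of 10 had a UMI in each hippocampal library, summed to 170 CPM in ependymal cells and 166 CPM in other barcodes with DOCA-salt, and to 279 and 211 CPM with sham. In cortex they summed to 133 and 87.0 CPM with DOCA-salt and to 209 and 72.5 CPM with sham. The neuronal RNA Meg3 alone stood at 144 CPM with DOCA-salt and 204 CPM with sham in hippocampal ependymal cells, while Snap25, Syt1 and Slc17a7 had no UMI in any of the 118 cells. Sox2 was listed at 0 in ependymal and all other barcodes.

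Genes of the cilium that the rule did not use were high in the same cells, which follows in part from choosing cells by linked genes and is described without a test. Over 137 genes of 8 cilium lists, ependymal cells held 25312 CPM in hippocampus DOCA-salt, 23187 in hippocampus sham, 34559 in cortex DOCA-salt and 30809 in cortex sham. All other barcodes held 3113, 3600, 2968 and 3075 CPM. In hippocampus DOCA-salt, 18 of 20 axonemal dynein genes, 12 of 12 central pair genes, 15 of 15 radial spoke and nexin link genes and 24 of 24 genes of the microtubule wall exceeded 2 times the level in other barcodes. In summed level the contrast was smaller for machinery that other cells also use. Basal body genes stood at 4.57 times other barcodes, intraflagellar transport genes at 4.77 times and the BBSome list at 2.97 times. Axonemal dyneins stood at 31.0 times and the microtubule wall at 7.10 times. The 2-fold mark was passed by 10 of 16 basal body, 18 of 23 intraflagellar transport and 10 of 11 BBSome list genes. The share of all genes past that mark is not given here for comparison.

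**Figure D2:**
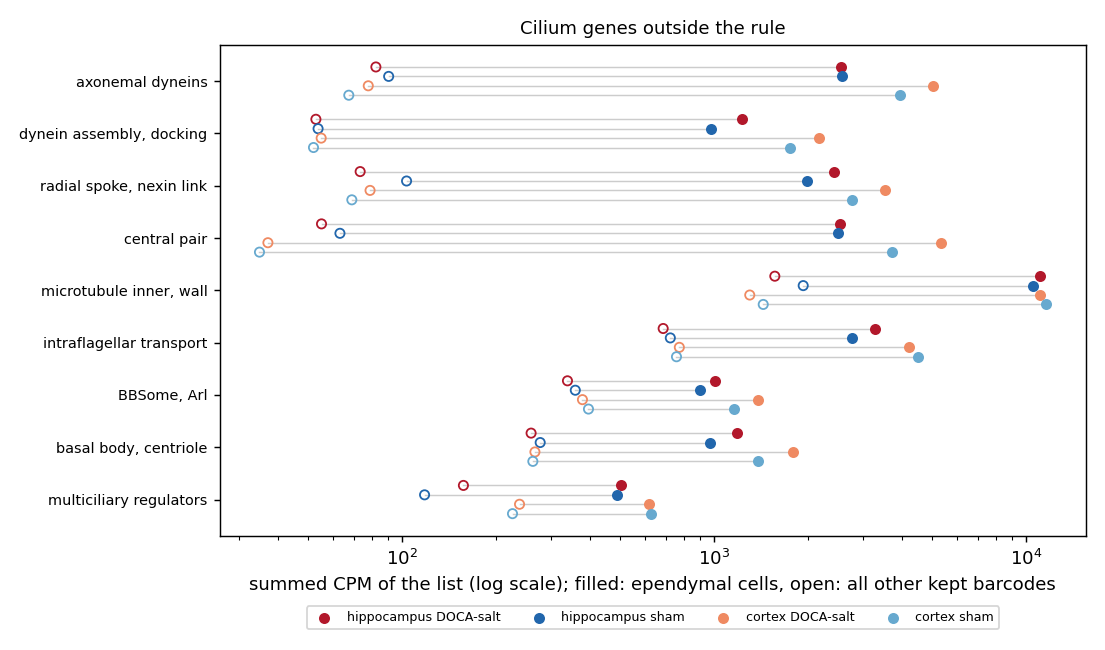
Summed CPM (log axis) of 9 lists of cilium genes outside the rule, filled circles for ependymal cells and open circles for all other kept barcodes of the same library. Dynein, spoke and central pair lists show the widest gap, for example 2555 against 82.4 CPM for axonemal dyneins in hippocampus DOCA-salt, and the BBSome list a narrow one, 1005 against 339 CPM.

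The motors showed the gap plainly. Axonemal dynein genes summed to 2555 CPM in ependymal cells and 82.4 CPM in other barcodes of hippocampus DOCA-salt, and to 2561 and 90.5 CPM in hippocampus sham. Dnah12, an inner arm heavy chain, was at 258 CPM with DOCA-salt and 225 CPM with sham in hippocampal ependymal cells, against 2.08 and 2.14 CPM in other barcodes. Central pair genes summed to 2529 CPM in ependymal cells and 55.2 CPM in other barcodes of hippocampus DOCA-salt. Spag17, a central pair protein gene, was at 153 CPM with DOCA-salt and 246 CPM with sham in hippocampus, and at 383 and 512 CPM in cortex. Among general ependymal genes, Dbi, which encodes a binding protein for acyl-CoA esters, stood at 14597 CPM with DOCA-salt and 15318 CPM with sham in hippocampus, and at 15268 and 21722 CPM in cortex. Rarres2, which encodes the secreted protein chemerin, stood at 2638 CPM with DOCA-salt and 2836 CPM with sham in hippocampus, and at 3728 and 2903 CPM in cortex.

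Among the 30 genes with the highest ratio of ependymal cells to other barcodes were further cilium genes and several that are not. Sntn, which encodes sentan of the ciliary tip, was at 306 CPM with DOCA-salt and 332 CPM with sham in hippocampus, against 1.46 and 2.60 CPM in other barcodes. Fam183b was at 1481 CPM with DOCA-salt and 1154 CPM with sham in hippocampus, and at 1076 and 1745 CPM in cortex. Krt15, a keratin gene, and Ucma, a gene for a secreted matrix protein known from cartilage, led this ranking but occurred in only some of the cells. Clec3b, which encodes the secreted protein tetranectin, was at 245 and 221 CPM in hippocampus and at 44.2 and 75.9 CPM in cortex, with DOCA-salt before sham in each tissue.

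DOCA-salt and sham were next compared within hippocampal ependymal cells. Of 4750 genes with at least 20 UMIs over both libraries, 16.6% were at least 1.5-fold higher and 16.7% at least 1.5-fold lower with DOCA-salt, with a median log2 ratio of 0.04. With a counting interval also clear of 1, the shares were 6.76% higher and 6.86% lower. Counts of listed genes are read against these shares. Of the wider set's genes, 12.2% of 7909 were that much higher and 9.76% that much lower. The groups also differed in RNA of other cells: 5 of 50 DOCA-salt and 12 of 53 sham cells held 2% or more of their UMIs in 10 oligodendrocyte genes. The 12 sham cells carried 80.2% of that list's UMIs in sham ependymal cells.

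The summed level of cilium genes was close in DOCA-salt and sham cells once those oligodendrocyte-rich cells were set apart. In the rule's cells, 23 of 107 measured cilium genes were at least 1.5-fold higher and 7 lower with DOCA-salt, with a median log2 ratio of 0.22 and a summed ratio of 1.09 (1.05 to 1.13). Without the oligodendrocyte-rich cells the sums were 26091 CPM with DOCA-salt and 26947 CPM with sham, a ratio of 0.968 (0.932 to 1.01). For the wider set they were 28812 CPM with DOCA-salt and 28648 CPM with sham, a ratio of 1.01 (0.984 to 1.03), with 10 of 123 genes higher and 3 lower. Of the parts of the cilium, axonemal dyneins gave 0.963 (0.902 to 1.03), the central pair 1.01 (0.941 to 1.08) and dynein assembly and docking genes 1.19 (1.07 to 1.31) in the wider set.

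Of the 107 single cilium genes, 15 were at least 1.5-fold higher with an interval clear of 1 and 4 lower, read against 6.76% and 6.86% of all genes. Tekt4, which encodes a tektin inside the axonemal microtubules, was at 293 CPM with DOCA-salt and 104 CPM with sham, a ratio of 2.82 (1.80 to 4.53), and at 1.65 (1.27 to 2.15) in the wider set. In cortex it was at 295 CPM with DOCA-salt, found in 8 of 8 cells, and 75.9 CPM with sham, found in 4 of 7. Dnajb13, a radial spoke chaperone gene, was at 162 CPM with DOCA-salt and 71.4 CPM with sham, and at 1.62 (1.16 to 2.27) in the wider set. Ccdc65, a nexin link gene, was at 188 and 71.4 CPM, but its ratio of 2.63 was 1.28 (0.931 to 1.77) in the wider set. Ift52, an intraflagellar transport gene, was at 30.6 and 60.7 CPM, and at 0.495 (0.265 to 0.895) in the wider set. Among regulators, Foxj1 had a ratio of 1.10 (0.891 to 1.35), Rfx3 of 1.14 (0.665 to 1.96) and Myb, which acts early in multiciliated cells, of 0.389 (0.140 to 0.943), with 0.757 (0.436 to 1.30) in the wider set. Ttll3, a tubulin glycylase gene, had 48.0 CPM with DOCA-salt and 150 CPM with sham in the rule's cells, but 183 and 127 CPM in the low-Ttr barcodes set aside.

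Immediate early genes, transcription factors and regulators that many stimuli induce quickly, were higher with DOCA-salt in the rule's cells. Of 18 measured, 15 were at least 1.5-fold higher and 0 lower, with a median log2 ratio of 1.20, against 0.42 for the same genes in other barcodes. Their sum was 11649 CPM with DOCA-salt and 5040 CPM with sham, a ratio of 2.31 (2.17 to 2.47). Fos stood at 2306 CPM with DOCA-salt, found in 42 of 50 cells, and at 618 CPM with sham, found in 39 of 53, a ratio of 3.73 (3.14 to 4.46). Jun stood at 1380 and 661 CPM, Egr1 at 594 and 229 CPM, and Btg2, an antiproliferative gene, at 1245 and 500 CPM. Per cell, the summed level had a median of 7092 CPM with DOCA-salt (899 to 50800) and 3182 CPM with sham (823 to 17036), and the groups overlapped.

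The size of this difference varied with depth and with which barcodes counted as ependymal. In the low-Ttr barcodes set aside the sums were 9339 CPM with DOCA-salt and 11519 CPM with sham. One of those 23 sham barcodes, with 29835 UMIs, 130 of them of the endothelial gene Cldn5 and none of Tmem212, held 35998 CPM of these genes. Without it the sham sum was 9548 CPM over 22 barcodes. Over the wider set the sums were 10397 CPM with DOCA-salt and 7632 CPM with sham, a ratio of 1.36 (1.31 to 1.42). Of 19 genes in that set, 6 were higher and 0 lower. In other barcodes the sums were 19091 CPM with DOCA-salt and 14147 CPM with sham, a similar ratio of 1.35. Wider-set barcodes of 8000 or more UMIs had medians of 7267 CPM over 29 with DOCA-salt and 7841 over 23 with sham. Summed over those barcodes, the levels were 10081 CPM with DOCA-salt and 8882 CPM with sham. Between 2000 and 8000 UMIs the wider-set medians were 12602 CPM over 16 with DOCA-salt and 2609 over 29 with sham. Below 2000 UMIs they were 6378 over 19 and 2332 over 9. The rule's cells of 8000 or more UMIs had medians of 9225 CPM over 10 with DOCA-salt and 4694 over 9 with sham. The part of depth and of free RNA in these values was not tested.

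**Figure D3:**
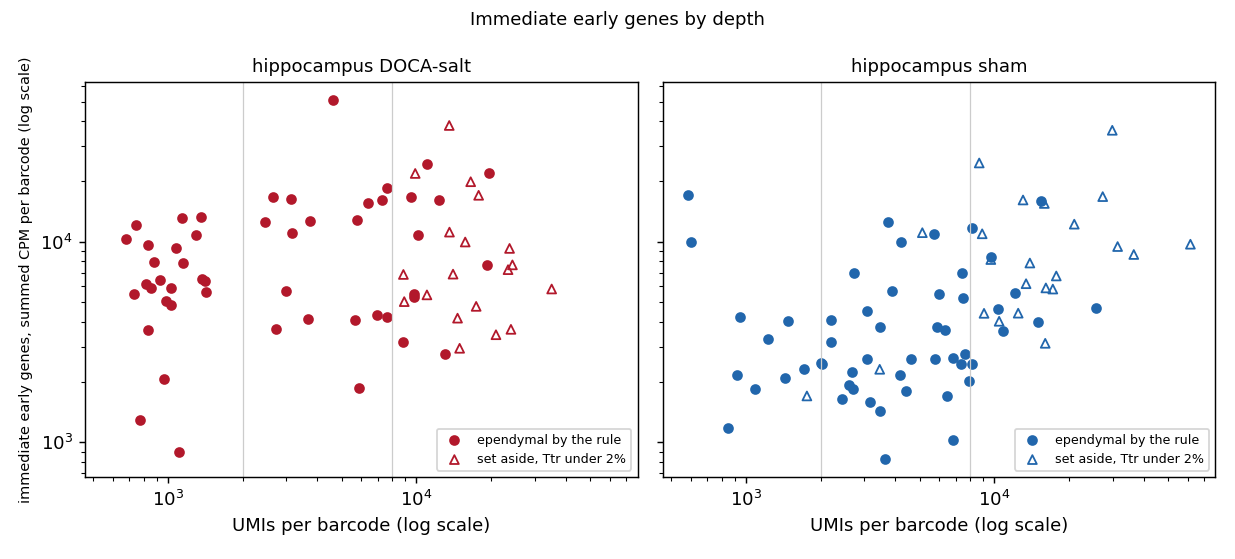
Summed CPM of immediate early genes in each hippocampal barcode against its UMIs (both axes log), left DOCA-salt and right sham, filled circles for ependymal cells by the rule and open triangles for low-Ttr barcodes set aside, with grey lines at 2000 and 8000 UMIs. Between the lines the DOCA-salt barcodes sit higher, with wider-set medians of 12602 CPM for DOCA-salt and 2609 CPM for sham, while right of 8000 UMIs the panels overlap.

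Heat shock genes, which encode protein chaperones, differed in both directions. Of 13 measured in the rule's cells, 5 were at least 1.5-fold higher and 3 lower with DOCA-salt, with a summed ratio of 0.819 (0.782 to 0.857) and 0.837 (0.812 to 0.862) in the wider set. Hspa1a, the stress-inducible HSP70, stood at 743 CPM with DOCA-salt and 125 CPM with sham, a ratio of 5.94 (4.11 to 8.81) and of 3.65 (2.95 to 4.54) in the wider set. Hspe1, a mitochondrial co-chaperone gene, stood at 524 and 1015 CPM, a ratio of 0.517 (0.414 to 0.642) and of 0.380 (0.333 to 0.432) in the wider set. Cryab, a small heat shock gene that oligodendrocytes also express strongly, stood at 821 and 2618 CPM, and at 0.579 (0.509 to 0.659) in the wider set. Other barcodes showed Cryab at 2245 CPM with DOCA-salt and 4528 CPM with sham, and Hspa8 at 1804 and 2614 CPM, so both were lower with DOCA-salt outside ependymal cells too. Hspb1, at 1227 and 611 CPM in the rule's cells, was at 1263 and 1744 CPM in the wider set, the opposite direction.

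DOCA acts through the mineralocorticoid receptor, whose gene Nr3c2 had 21.8 CPM with DOCA-salt and 21.4 CPM with sham in hippocampal ependymal cells. The glucocorticoid receptor gene Nr3c1 had 82.99 and 50.01 CPM. Hsd11b2, the enzyme that protects the mineralocorticoid receptor from glucocorticoids, had no UMI in any ependymal cell. Scnn1a, which encodes a subunit of the epithelial sodium channel, stood at 78.6 CPM with DOCA-salt and 100 CPM with sham in hippocampus, a ratio of 0.786 (0.409 to 1.47), and at 133 and 94.9 CPM in cortex. Other barcodes held it at 1.48 and 1.09 CPM in hippocampus and at 0.795 and 0.780 CPM in cortex.

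Corticosteroid target genes had no common direction. Of 9 measured, 1 was at least 1.5-fold higher and 4 lower in the rule's cells, with a median log2 ratio of -0.41, and in the wider set 0 of 11 were higher and 1 lower. Sgk1, a kinase that regulates sodium transport, stood at 65.5 CPM with DOCA-salt and 211 CPM with sham, a ratio of 0.311 (0.164 to 0.555). Its wider-set level was 58.7 CPM with DOCA-salt and 81.5 CPM with sham, a ratio of 0.720 (0.442 to 1.16). Tsc22d3, known as Gilz, stood at 65.5 and 139 CPM, and at 0.617 (0.400 to 0.939) in the wider set. Mt2, a metallothionein gene, stood at 1909 and 1286 CPM, a ratio of 1.48 (1.29 to 1.71) and of 1.19 (1.09 to 1.30) in the wider set.

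Water and ion transport genes gave no common direction. In the rule's cells 2 of 16 were at least 1.5-fold higher and 5 lower, with a summed ratio of 0.847 (0.773 to 0.928), and in the wider set the ratio was 1.001 (0.935 to 1.07). Aqp4, the main brain water channel, stood at 223 CPM with DOCA-salt and 229 CPM with sham in hippocampus, and at 457 and 285 CPM in cortex. Car2, a carbonic anhydrase gene also high in oligodendrocytes, stood at 485 and 1065 CPM in hippocampus, but at 318 and 202 CPM without the oligodendrocyte-rich cells. Fxyd1, which encodes a regulator of ion transport, stood at 406 and 650 CPM, and at 0.676 (0.559 to 0.816) in the wider set.

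Some genes marked only part of the ependymal cells, and the libraries differed in these. Npy, which encodes neuropeptide Y, had a UMI in 2 of 50 DOCA-salt cells and 25 of 53 sham cells of hippocampus, at 39.3 CPM with DOCA-salt and 343 CPM with sham. Its ratio was 0.115 (0.0509 to 0.227), and 0.0582 (0.0261 to 0.113) in the wider set. Other barcodes held 0.475 CPM with DOCA-salt and 1.88 CPM with sham, far below the ependymal level. Krt15 had a UMI in 13 DOCA-salt and 22 sham cells, at 122 and 300 CPM, and a ratio of 0.404 (0.275 to 0.583) in the wider set. Ucma had one in 6 DOCA-salt and 22 sham cells, at 100 and 264 CPM, and a ratio of 0.392 (0.258 to 0.582) in the wider set.

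At least 1 of Npy, Krt15 and Ucma was found in 14 of 50 DOCA-salt cells (28.0%) and 39 of 53 sham cells (73.6%). In the low-Ttr barcodes set aside, which were deeper, the counts were 8 of 19 with DOCA-salt (42.1%) and 13 of 23 with sham (56.5%). Over the wider set they were 21 of 64 (32.8%) and 43 of 61 (70.5%). In cortex 4 of 8 DOCA-salt and 5 of 7 sham cells had at least 1 of them. Detection depends on depth, and median depth with DOCA-salt was lower in the rule's hippocampal cells but higher in the low-Ttr barcodes, the wider set and the cortical cells. All 3 genes had lower CPM with DOCA-salt in each hippocampal set. In cortex Npy stood at 73.7 CPM with DOCA-salt and 56.9 CPM with sham, Krt15 at 29.5 CPM and 0, and Ucma at 14.7 and 152 CPM.

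**Figure D4:**
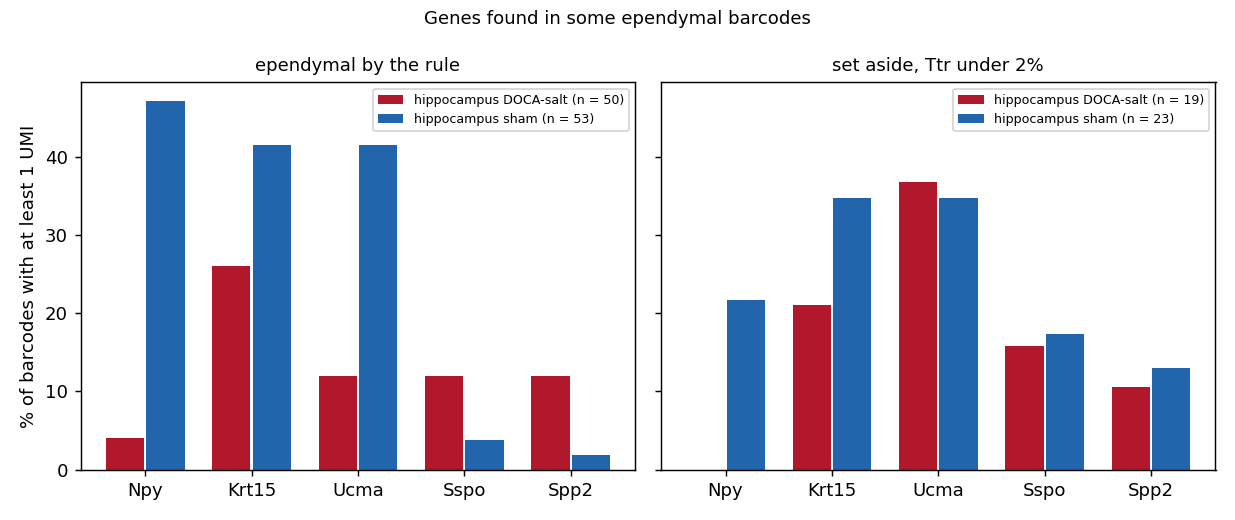
Percentage of hippocampal barcodes with at least 1 UMI of 5 genes, DOCA-salt beside sham, for ependymal cells by the rule (left, 50 and 53) and low-Ttr barcodes set aside (right, 19 and 23). Npy was found in 2 and 25 cells on the left and in 0 and 5 on the right, and Sspo and Spp2 change their order between the panels.

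Sspo, which encodes the giant secreted glycoprotein SCO-spondin, and Spp2, a secreted phosphoprotein gene, marked another small group. Both had a UMI in 6 DOCA-salt and 1 sham cell of hippocampus, and in 2 DOCA-salt and 3 sham low-Ttr barcodes set aside. SCO-spondin is known as the product of the subcommissural organ, an ependymal gland in the roof of the third ventricle. None of the 8 DOCA-salt barcodes with both held Npy, Krt15 or Ucma, and 2 of the 4 sham ones did. Sspo stood at 367 CPM with DOCA-salt and 92.9 CPM with sham in the rule's cells, but at 248 and 254 CPM in the wider set. Spp2 stood at 467 and 100 CPM, and at 414 and 230 CPM in the wider set. No cortical ependymal cell had a UMI of either gene.

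Immediate early genes were also summed by these groups, over the 69 DOCA-salt and 74 sham barcodes of the wider set before oligodendrocyte-rich ones were left out. Barcodes with both Sspo and Spp2 had a median of 19297 CPM over the 8 with DOCA-salt and 16435 CPM over the 4 with sham. The remaining barcodes had none of Npy, Krt15 and Ucma and not both of Sspo and Spp2. Their median was 6135 CPM over 39 with DOCA-salt and 4215 CPM over 21 with sham. In those of 8000 or more UMIs the medians were 5510 and 6000 CPM. Barcodes with Npy, Krt15 or Ucma, but not both Sspo and Spp2, had medians of 7539.5 CPM over 22 with DOCA-salt and 3989 CPM over 49 with sham. At 8000 or more UMIs the medians of that group were 8270 CPM over 12 with DOCA-salt and 6325 CPM over 16 with sham.

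Single genes were ranked by the interval bound nearest to 1, among those with 50 or more UMIs whose level, in the library where it was higher, reached that in other barcodes. Genes below that level, such as Fos and Hspa1a, were not ranked. Rbp4, which encodes the plasma retinol carrier, was among the 12 ranked highest. It had a UMI in 8 DOCA-salt cells and 1 sham cell, at 293 and 21.4 CPM, a ratio of 13.7 (5.95 to 38.5). Across the wider set it was found in 17 of 64 DOCA-salt and 2 of 61 sham barcodes, at 251 and 64.9 CPM, a ratio of 3.87 (2.66 to 5.79). It was listed at 0 in all 15 cortical ependymal cells. By the rule, 5 of the 8 DOCA-salt cells with Rbp4 and the 1 sham cell also held Sspo and Spp2. The part of that group in the Rbp4 ratio was not tested. Emb, which encodes the adhesion protein embigin, was at 192 and 42.9 CPM, found in 21 and 7 cells, with a ratio of 1.92 (1.40 to 2.65) in the wider set. Wls, needed to secrete Wnt proteins, was at 572 and 221 CPM, with 1.61 (1.37 to 1.91) in the wider set. Hopx, Tst, Pcp4l1 and Dnajb1 were also among these 12, with ratios of 3.33, 3.01, 2.28 and 3.97 in the rule's cells and 1.48, 1.89, 1.31 and 1.64 in the wider set.

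The 12 genes ranked lowest in the same way included transcription factors and secreted proteins. Nr2f1, a patterning factor, stood at 65.5 CPM with DOCA-salt and 314 CPM with sham in hippocampus, a ratio of 0.208 (0.112 to 0.363), and at 398 CPM in both cortical libraries. Its wider-set ratio was 0.314 (0.204 to 0.471), but the low-Ttr barcodes held 51.7 CPM with DOCA-salt and 54.9 CPM with sham. Ly6h, which encodes a membrane-anchored regulator of acetylcholine receptors, stood at 131 and 336 CPM, with 0.316 (0.212 to 0.461) in the wider set. Mia, a secreted protein gene, stood at 559 and 1093 CPM in hippocampus and at 1120 and 1594 CPM in cortex, with ratios of 0.511 (0.413 to 0.631) and 0.703 (0.508 to 0.970). Mdk (midkine), Nfib, Clcn4 and Gstm1 had ratios of 0.332, 0.383, 0.378 and 0.539 in the rule's cells and of 0.529, 0.605, 0.597 and 0.721 in the wider set. Tac2, listed at 0 with DOCA-salt and 246 CPM with sham, came from 1 sham cell.

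**Figure D5:**
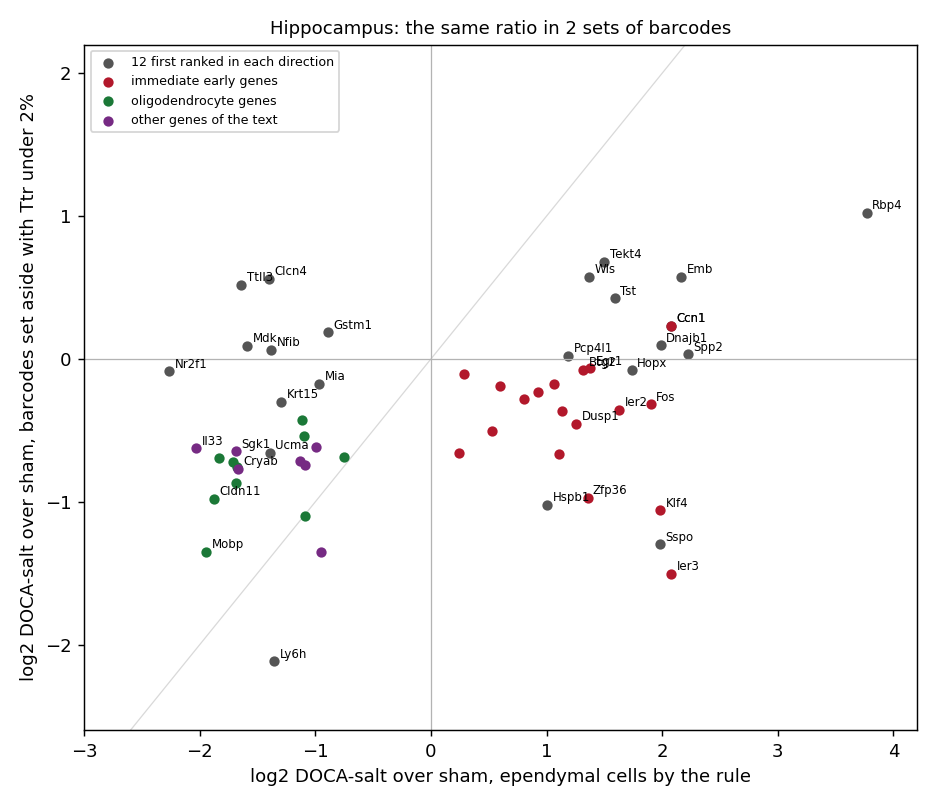
Log2 ratio of DOCA-salt to sham in hippocampus for named genes, in ependymal cells by the rule (horizontal) and in low-Ttr barcodes set aside (vertical), coloured by group, with a diagonal of equal ratios; the vertical values include the endothelial barcode. Rbp4, Tekt4, Wls and Emb lie above 0 on both axes, Ly6h and the oligodendrocyte genes below 0 on both, while Sspo lies above 0 only on the horizontal axis.

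Glycolysis and hypoxia genes had 5 of 13 at least 1.5-fold higher and 2 lower with DOCA-salt, a summed ratio of 1.39 (1.28 to 1.52) and of 1.20 (1.13 to 1.28) in the wider set. Ldha, lactate dehydrogenase, stood at 162 and 82.2 CPM, with 1.66 (1.16 to 2.38) in the wider set, and Pkm, pyruvate kinase, at 734 and 418 CPM, with 1.44 (1.23 to 1.68). Clu, which encodes the extracellular chaperone clusterin, stood at 5840 and 3519 CPM, with 1.17 (1.11 to 1.23) in the wider set. Cst3, cystatin C, stood at 7574 CPM with DOCA-salt and 3601 CPM with sham in the rule's cells, but at 4213 and 6485 CPM in the low-Ttr barcodes. Ptgds, a prostaglandin synthase gene also made by oligodendrocytes, stood at 5403 and 10799 CPM, with 0.799 (0.741 to 0.861) in the wider set.

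Acute phase and reactive genes summed to 2507 CPM with DOCA-salt and 1986 CPM with sham, against 1064 and 644 CPM in other barcodes. Of 8 measured, 1 was at least 1.5-fold higher and 3 lower, with a summed ratio of 1.26 (1.12 to 1.42) and of 1.14 (1.06 to 1.24) in the wider set. Lcn2, an acute phase gene, had 1 UMI-bearing DOCA-salt cell (4.37 CPM) and was at 0 with sham, whereas other barcodes held 49.997 CPM with DOCA-salt and 0.603 CPM with sham. Serpina3n stood at 34.9 and 14.3 CPM in ependymal cells, and at 37.9 and 3.90 CPM in other barcodes. Gfap stood at 140 and 146 CPM. Of 3 measured interferon response genes 0 passed 1.5-fold either way, against 3 higher and 1 lower of 9 in the wider set, and Ifitm3 stood at 738 and 832 CPM. MHC class I genes, which present antigen, summed to 970 and 604 CPM, against 2172 and 1564 CPM in other barcodes, a ratio of 1.61 (1.31 to 1.97) and of 1.09 (0.954 to 1.25) in the wider set. H2-K1, one of them, stood at 310 and 121 CPM in the rule's cells, but its ratio was 0.983 (0.774 to 1.25) in the wider set. Il33, an alarmin gene that oligodendrocytes also express, stood at 52.4 and 214 CPM, with 0.785 (0.434 to 1.41) in the wider set.

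RNA of other cells was measured beside these values. Ttr reached all 53 sham ependymal cells of hippocampus and 7 of the 50 DOCA-salt cells, at 56.8 CPM with DOCA-salt and 5662 CPM with sham. Other barcodes held 118 and 18056 CPM. All 10 oligodendrocyte genes were lower with DOCA-salt in the rule's cells, at a sum of 5176 against 16007 CPM, a ratio of 0.323 (0.303 to 0.345). The medians per cell were 4108 CPM with DOCA-salt and 4847 CPM with sham, and the sums varied with depth. Under 2000 UMIs the sums were 14734 CPM over 23 DOCA-salt cells and 15260 CPM over 11 sham cells. At 2000 or more UMIs they were 4087 CPM over 27 DOCA-salt cells and 16043 CPM over 42 sham cells. The wider-set ratio was 0.765 (0.720 to 0.814). That set leaves out barcodes by this same list, so its ratio follows in part from the choice. In other barcodes the ratio was 0.677.

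Endothelial genes summed to 3686 CPM with DOCA-salt and 2893 CPM with sham, against 4542 and 4288 CPM in other barcodes, with 3 of 5 measured at least 1.5-fold higher. Their ratio was 1.27 (1.16 to 1.40), and 1.03 (0.970 to 1.10) in the wider set. Astrocyte genes summed to 917 CPM with DOCA-salt and 589 CPM with sham, with 3 of 5 measured at least 1.5-fold higher, and to a ratio of 1.20 (1.04 to 1.39) in the wider set. Microglia genes summed to 1756 and 1454 CPM, with 0 of 9 past 1.5-fold either way and a wider-set ratio of 0.870 (0.796 to 0.952). S100a9, a neutrophil gene, stood at 82.99 and 10.7 CPM in ependymal cells and at 605 and 7.56 CPM in other barcodes. Haemoglobin genes summed to 957 and 539 CPM. The part of this RNA in the ratios of ependymal genes was not tested.

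In cortex the 8 DOCA-salt and 7 sham cells held 67856 and 52712 UMIs, and 1089 genes could be compared. Of these, 18.1% were at least 1.5-fold higher and 13.9% lower with DOCA-salt, and 6.06% and 5.69% were so with an interval clear of 1. Cilium genes summed to 34559 CPM with DOCA-salt and 30809 CPM with sham, a ratio of 1.12 (1.05 to 1.20), with 19 of 70 higher and 4 lower. Central pair genes gave 1.43 (1.20 to 1.71) and intraflagellar transport genes 0.937 (0.786 to 1.12). Immediate early genes summed to 3802 and 2485 CPM, a ratio of 1.53 (1.24 to 1.90), with 4 of 8 higher and 1 lower. Fos stood at 811 CPM with DOCA-salt, found in 7 of 8 cells, and 152 CPM with sham, found in 3 of 7, and 1 DOCA-salt cell held 38 of its 55 UMIs. Metallothioneins summed to 14280 and 21665 CPM, a ratio of 0.659 (0.604 to 0.719).

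Hippocampal and cortical ependymal cells were last set side by side within each treatment. Of 2939 genes in the DOCA-salt libraries, 26.1% were at least 1.5-fold higher and 21.4% lower in hippocampus, and of 3225 in the sham libraries 30.1% were higher and 20.6% lower. With an interval clear of 1, the shares were 8.0% higher and 9.94% lower with DOCA-salt, and 7.32% higher and 6.36% lower with sham. Cilium genes were lower in hippocampus, at 25312 against 34559 CPM with DOCA-salt and 23187 against 30809 CPM with sham, where ependymal cells were also shallower. Krt15 stood at 122 CPM in hippocampus and 29.5 CPM in cortex with DOCA-salt, and at 300 CPM and 0 with sham.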

How the data were processed

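Per the labels, libraries are droplet 3' ones (SeekOne DD kit). The authors deposited matrices of UMI counts, with 32285 genes in rows. Tools named in the submitters' processing notes include STAR, Subread, fastp and Seurat, with GRCm38 as build, while versions, annotation release and counting strand are not given in the sources used here. Deposited libraries held 11159 to 11402 barcodes and 66824217 to 70173987 UMIs.

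UMIs were summed over barcodes and scaled to 1000000 (CPM). Ratios carry exact conditional 95% intervals, and shares exact binomial ones, for counting error only. Genes needed 20 UMIs over both libraries for a ratio and 50 to enter the rankings of single genes. List members and genes chosen after their values were seen could have fewer than 50. The lists name 35 gene sets, rule genes left out. Named were the rule genes, the 30 genes highest against other barcodes, the 12 genes ranked highest and 12 lowest by the interval bound nearest to 1, among genes whose level where higher reached that of other barcodes, and per list the largest, highest and lowest members. Other named genes, among them Nr3c2, Hsd11b2, Scnn1a, Lcn2, Serpina3n, Aqp4, Egr1, Clu, Hspa8 and Dnajb13, were chosen after their values were seen. Members and lists were chosen with earlier results of these data known, and so were the settings listed as added below. Doublets were kept, and Scrublet calls (expected rate 0.08) were an alternative. Python 3.11.15, numpy 2.4.6, scipy 1.17.1, pandas 2.3.3 and scanpy 1.11.5 were used. Intervals were tested on simulated counts drawn without spread between cells, so their coverage under such spread was not tested.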

Additional observations from a re-analysis of the deposited data

Results flagged for a closer look

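The ratios of DOCA-salt to sham in ependymal cells pointed in opposite directions in hippocampus and cortex for 4 genes and 1 list, with both counting intervals clear of 1. The difference between the tissues was not tested, as each group held 1 library. Fam183b had a ratio of 1.28 in hippocampus and 0.616 in cortex. Mt2 had 1.48 in hippocampus and 0.594 in cortex, and Mt1 had 1.17 in hippocampus and 0.679 in cortex. Ptgds had 0.5003 in hippocampus and 1.37 in cortex. The summed corticosteroid targets had 1.25 in hippocampus and 0.646 in cortex. Mt2 belongs to this list, so the list is not a result separate from Mt2. The list was not summed without Mt2. In hippocampus 1 of 9 measured targets was at least 1.5-fold higher and 4 lower, with a median log2 ratio of -0.41. In cortex Mt2 was the only target with enough UMIs for a ratio. In the wider hippocampal set Fam183b had 0.935 (0.851 to 1.03) and Mt1 0.995 (0.954 to 1.04), and neither was then clear of 1.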

How the results depend on the processing

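No paired analysis was possible because each group held 1 library. Shares in hippocampus DOCA-salt were 0.641% with at least 3 rule genes and 0.320% with at least 5. With no choroid ceiling they were 0.614% with DOCA-salt and 1.78% with sham, a ratio of 0.345, and with Ttr under 2% in its place 0.614% and 0.668%. With no choroid gene allowed, shares were 0.214% with DOCA-salt and 0.214% with sham in hippocampus, and 0.0176% and 0.0180% in cortex. Leaving out barcodes with 3 markers of another class kept 15 DOCA-salt and 17 sham cells of hippocampus (0.133% and 0.151%), and 3 and 1 of cortex (0.0264% and 0.00902%).

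In hippocampus 790 genes were at least 1.5-fold higher and 794 lower, and in cortex 197 and 151. At 2-fold these were 276 and 334, and 92 and 40. With a minimum of 1 UMI they were 4281 and 4538, and 4904 and 3189, with 10 UMIs 1549 and 1586, and 650 and 435, and with 50 UMIs 246 and 229, and 30 and 50. Thinned to 2000 UMIs they were 196 and 205, and 28 and 55, and without barcodes of 3 other markers 105 and 160, and 33 and 32.

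The hippocampal immediate early ratio was 2.71 thinned, 1.96 without barcodes of 3 other markers, 2.69 without oligodendrocyte-rich cells, 1.16 with Ttr in place of the ceiling, 1.35 there without the endothelial barcode and 1.36 without the oligodendrocyte-rich ones too. The cilium ratio was 0.981 with equal weight per cell, 0.856 without barcodes of 3 other markers, 0.968 without oligodendrocyte-rich cells and 1.01 in the wider set. In cortex it was 0.996 thinned and 1.23 without barcodes of 3 other markers.

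Directions also turned elsewhere. Without barcodes of 3 other markers the ratio was 0.538 for Ccn1, 0 for Tst, 0.583 for Hspb1 and 1.08 for Nfib, the oligodendrocyte sum 1.12 and its median log2 ratio 0.54. Sspo had 0.916 with Ttr in place of the ceiling, 0.876 without the endothelial barcode and 0.975 in the wider set, and Hspb1 0.709, 0.791 and 0.725. The median log2 ratio of stem cell and radial glia genes, 0.64 in the rule's cells, was -0.98 without barcodes of 3 other markers, -0.41 thinned, -0.22 with equal weight, and -0.17, -0.18 and -0.34 in those 3 sets. The endothelial median was -0.025 without Scrublet doublets and -1.43 with Ttr in place of the ceiling. Settings with Ttr, without oligodendrocyte-rich or Sspo, Spp2, Tac2 and high-Ttr cells, and with members of 2000 UMIs or more were added after seeing the data. Rbp4 and Spp2 had no sham UMI without oligodendrocyte-rich cells and gave no ratio there. The cause of these differences was not tested. Cortical values rest on 15 cells, and neither tissue shows the spread between mice.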

Other observations

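Planar polarity and adhesion genes, which align the beat of neighbouring cilia, stood at 1044 CPM in ependymal cells and 1181 CPM in other barcodes of hippocampus DOCA-salt, and at 1050 and 961 CPM in hippocampus sham. In cortex they stood at 1253 and 1822 CPM with DOCA-salt and at 1442 and 1962 CPM with sham. Gja1, a gap junction gene, stood at 253 CPM with DOCA-salt and 161 CPM with sham, a ratio of 1.58 (1.05 to 2.38) and of 1.23 (0.968 to 1.56) in the wider set. Of 8 genes that mark tanycytes, the ependymal cells of the third ventricle floor, 2 could be compared. Ppp1r1b stood at 144 and 154 CPM and Scn7a at 21.8 and 57.2 CPM, with DOCA-salt before sham.

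Nnat, which encodes neuronatin, a membrane protein of the endoplasmic reticulum, was lower with DOCA-salt in hippocampus, at 1542 CPM in 28 of 50 cells against 2397 CPM in 49 of 53 sham cells, and had a ratio of 0.624 (0.569 to 0.683) in the wider set. In cortex it stood at 3316 CPM with DOCA-salt and 3320 CPM with sham. Mt3, a metallothionein gene of the brain, stood at 4215 and 6509 CPM in hippocampus and at 6337 and 9694 CPM in cortex, ratios of 0.648 (0.598 to 0.701) and 0.654 (0.574 to 0.745). The low-Ttr barcodes set aside held Mt3 at 4301 CPM with DOCA-salt and 3943 CPM with sham, or 4239 CPM with sham without the endothelial barcode. Nnat and Mt3 were chosen after their values were seen.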
